A study of Mus musculus with 9 samples.

Results

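Autophagy is the route by which a cell encloses its own cytoplasm in a membrane and delivers it to lysosomes, and the RNA of 39 mouse genes of this route was followed in dendritic cells (DCs) under 3 conditions. The genes were chosen by symbol, for their place in the pathway, and span its steps from initiation to cargo recognition, with the transcription factor *Tfeb* and 3 mitophagy genes. All 39 were found once among the 55471 genes counted, and all were among the 16260 genes tested after a filter on low counts. The cells were grown from bone marrow of wild-type adult female C57BL/6 mice with GM-CSF and left unstimulated, activated with LPS at 100 ng/mL or treated with IFN-β at 1000 U/mL, each for 6 h. LPS, from the outer membrane of Gram-negative bacteria, is sensed through TLR4, and IFN-β is an antiviral cytokine. The 3 groups held 3 libraries apiece, lettered A, B and C, and values below are given in that order. The labels do not say whether the letters stand for separate mice or cultures, so p-values measure the spread between these libraries, part of which may be technical. Cultures with GM-CSF hold macrophage-like cells beside DCs.

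Autophagy begins when the ULK kinase complex is switched on and a class III PI3 kinase marks a membrane, which then grows with lipid brought by ATG9 and ATG2 proteins. A chain of ubiquitin-like reactions fixes LC3 and GABARAP proteins to this membrane, where cargo receptors such as p62 tether ubiquitylated material. In antigen-presenting cells the pathway is known for supplying peptides to MHC class II and for clearing bacteria and damaged mitochondria, and nutrient-sensing by mTORC1 and AMPK sets its rate. RNA levels, as measured here, do not report the flux of autophagosomes.

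Libraries held 33425803 to 43735199 counts in genes, and those of the 39 genes ran from 75 (*Atg16l2*) to 25363 (*Sqstm1*) in a single library. Levels are given as CPM, counts normalised to the size of each library, itself corrected for composition with TMM factors, which ran from 0.783 to 0.841 for LPS and from 1.18 to 1.26 for unstimulated libraries. With scaling by library size only, the median log2 fold change of all tested genes moved by -0.58 under LPS, by -0.31 under IFN-β and by 0.27 between the responses. Of the 117 fold changes of the 39 genes (3 comparisons each), 36 crossed 0 with that scaling, 25 of them with a call under one scaling or the other. The value with scaling by library size only is given beside each call it turned. Relative to the shift all 117 kept their sign, but the 2 scalings differ by a nearly constant offset, so this follows by construction. It cannot show which scaling is right. All 8 DC genes listed, among them *Cd74* and *Zbtb46*, passed the filter, although *Flt3* was at 5 CPM or less. They summed to 4893 to 5777 CPM without stimulation, 6389 to 7129 CPM after LPS and 5445 to 5710 CPM after IFN-β. With LPS *Cd74*, *H2-Ab1*, *Itgax* and *Csf2ra* were called higher, while *Itgam*, *Ciita* and *Flt3* had no call. The summed level of 4 macrophage genes was 1374 to 1677 CPM without stimulation, 1629 to 2052 CPM after LPS and 1909 to 2190 CPM after IFN-β. These 4 genes did not move together. With LPS the mean of *Csf1r* went from 1101 to 562 CPM, while *Adgre1*, *Mertk* and *Fcgr1* rose. With IFN-β *Fcgr1* went from 97.3 to 567 CPM and *Mertk* from 121 to 266 CPM, and *Csf1r* and *Adgre1* had no call. Neither sum is therefore a measure of the content of DCs or macrophages. The 7 neutrophil genes summed to 9.45 to 24.7 CPM in all 9 libraries, 3 eosinophil genes to 11.9 to 32.7 CPM and 2 megakaryocyte genes, nearly all of it *Pf4*, to 71.9 to 130.1 CPM. None of the genes listed for B cells, T cells, NK cells, mast cells and basophils or erythroid cells passed the filter, and no such list summed to more than 0.354 CPM. The part of these cells in the results was not tested. The summed level of 8 stimulation markers was 275 to 521 CPM, 17223 to 19590 CPM and 3831 to 4313 CPM in the same order of groups. *Il12b*, one of them, had no call under IFN-β (means of 3.41 and 4.28 CPM, adjusted p = 0.134). Unstimulated libraries differed in some markers. *Irf7* had 228, 161 and 33.3 CPM, *Ifit1* 40.7, 25.9 and 11.2 CPM and *Isg15* 35.8, 22.1 and 8.80 CPM. *Mx1* (135, 142 and 111 CPM) varied less, and *Il6* (0.836, 1.26 and 2.08 CPM) went the other way.

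LPS and IFN-β each moved the 39 genes in both directions, with the largest rises in cargo receptors and the largest falls, under LPS, in *Tfeb*, *Atg2b*, *Atg7* and *Bnip3*. Under LPS, 27 of 39 genes (69.2%) passed an adjusted p-value of 0.05, 12 higher and 15 lower. This share lies near that of all tested genes, of which 68.2% were called, 32.8% higher and 35.4% lower. IFN-β changed 20 of 39 genes (51.3%), 11 higher and 9 lower, against 46.9% of all tested genes, 23.6% higher and 23.3% lower. The median absolute log2 fold change was 0.37 under LPS and 0.28 under IFN-β, against 0.65 and 0.35 over all tested genes, and the signed medians of -0.077 and 0.000089 lay beside -0.042 and -0.017 over all genes. With scaling by library size only, the split was 3 higher and 33 lower under LPS and 4 higher and 23 lower under IFN-β. Upper-quartile factors gave 9 higher and 14 lower under IFN-β, and a model with the letters as a block gave 12 higher and 14 lower. In bulk RNA, fewer cells of a type and less RNA per cell cannot be told apart, which holds for every fall reported here.

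Both comparisons share the unstimulated libraries, which by itself favours agreement between them, so their values are only set side by side. Of the 39 genes, 9 were higher under both stimuli (*Becn1*, *Atg13*, *Atg12*, *Atg16l1*, *Atg4d*, *Gabarapl2*, *Sqstm1*, *Optn* and *Tax1bp1*), of which the LPS value of *Becn1*, *Atg13*, *Atg12*, *Atg16l1* and *Gabarapl2* and the IFN-β value of *Becn1* and *Gabarapl2* fell below 0 with scaling by library size only. Under both stimuli 7 were lower (*Ulk1*, *Ulk2*, *Atg2b*, *Atg7*, *Atg16l2*, *Gabarapl1* and *Calcoco1*). The genes higher under both are 23.1% and those lower under both 17.9% of the 39, near the 19.7% and 19.8% of all tested genes. *Atg9a* was the single gene past the threshold in opposite directions, although with scaling by library size only its LPS value also lay below 0, at -0.25. The threshold was passed with LPS and not with IFN-β for 10 genes (*Atg4b* and *Gabarap* higher; *Tfeb*, *Pink1*, *Bnip3*, *Bnip3l*, *Map1lc3b*, *Atg5*, *Atg14* and *Atg2a* lower) and with IFN-β and not with LPS for 3 (*Uvrag* and *Atg3* higher, *Wipi1* lower). *Rb1cc1*, *Atg101*, *Pik3c3*, *Wipi2*, *Atg10*, *Atg4a*, *Atg4c*, *Map1lc3a* and *Nbr1* passed it in neither (23.1%). Of all tested genes, 12.5% were higher and 14.4% lower with LPS only, 2.8% and 2.87% with IFN-β only, and 26.2% passed in neither. With the letters as a block, *Pink1*, *Atg5*, *Atg2a*, *Atg101*, *Wipi2* and *Atg10* also passed the threshold under IFN-β. The difference between the responses, given below, was past the threshold for 9 of the 10 genes called with LPS only, all but *Gabarap*. It was also past the threshold for *Uvrag* and *Atg3* but not *Wipi1*. These genes were picked on the same libraries, which by itself favours such calls. The share over all tested genes called with LPS only or IFN-β only was not computed. In every call, LPS or IFN-β, the 3 stimulated libraries lay on one side of the 3 unstimulated libraries, for which an exact permutation test gives p = 0.1, the smallest p that 3 against 3 libraries allow. The same held for 1 of 12 genes not called under LPS and for 7 of 19 not called under IFN-β. Over all tested genes this share was not computed. The calls come from these same libraries, which favours such separation, so it lends them no further support.

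**Figure D1:**
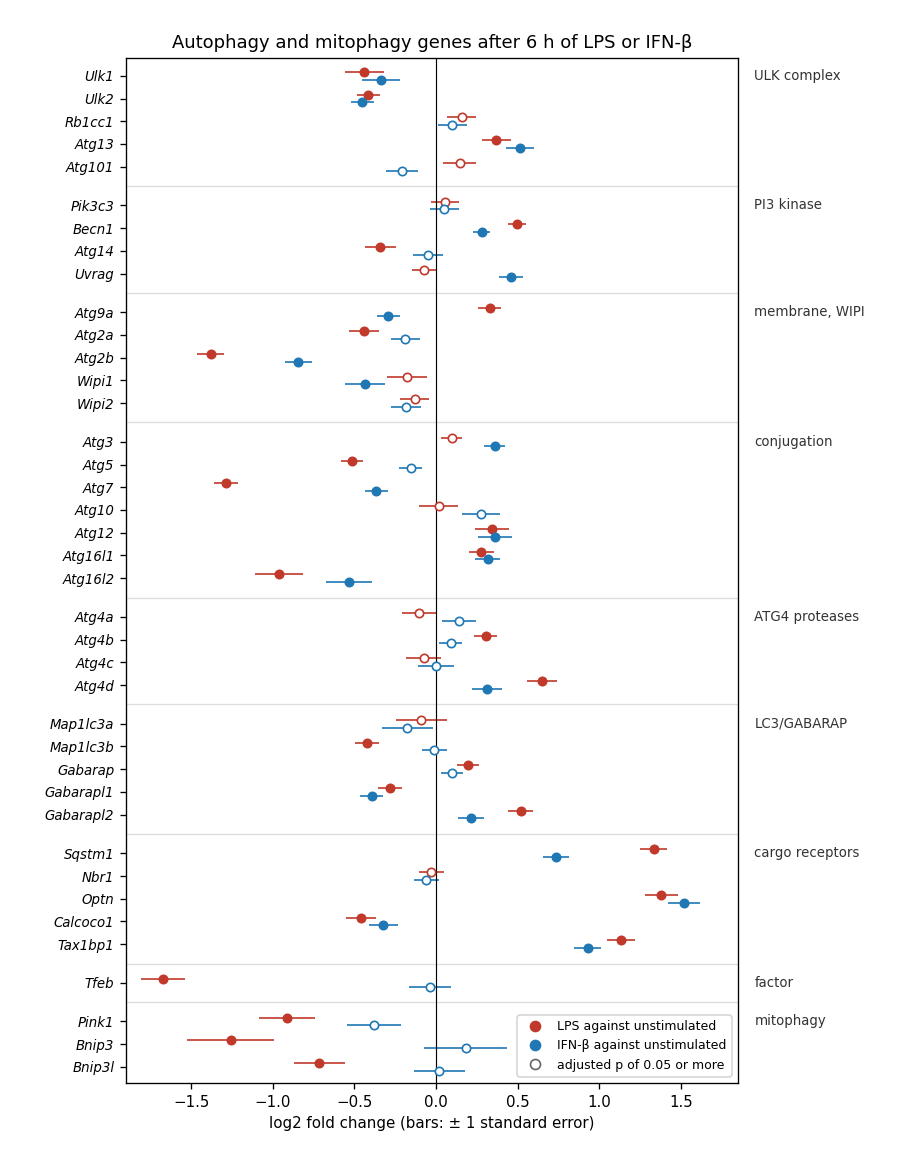
Log2 fold change of each of the 39 genes (horizontal axis) after LPS (red) or IFN-β (blue) against unstimulated DCs, with bars of 1 standard error and filled points past the adjusted p-value threshold. Genes are grouped by step of the pathway: *Sqstm1*, *Optn* and *Tax1bp1* lie far to the right under both stimuli, and *Tfeb*, with values of -1.67 and -0.037, shows the widest gap between them.

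The ULK complex, which starts autophagy, had 3 of 5 genes past the threshold under each stimulus, with *Atg13* higher and both kinase genes lower. Here and in the steps below, such counts stand beside 68.2% (LPS) and 46.9% (IFN-β) of all tested genes called. *Atg13*, which encodes the adaptor that mTORC1 phosphorylates, had 35.7, 34.7 and 30.3 CPM in unstimulated DCs, 44.9, 42.8 and 42.5 CPM in LPS-activated DCs and 53.4, 46.6 and 44.1 CPM in IFN-β-treated DCs. The log2 fold change was 0.37 (SE 0.087, adjusted p = 0.00302) under LPS, or -0.21 with scaling by library size only, and 0.52 (SE 0.087, adjusted p = 7.08e-04) under IFN-β. The groups did not overlap with the unstimulated group for either stimulus. *Ulk2*, one of the kinase genes, was at 42.5, 38.6 and 38.5 CPM in unstimulated DCs, 27.9, 30.0 and 31.6 CPM in LPS-activated DCs and 28.5, 29.7 and 29.2 CPM in IFN-β-treated DCs. Unstimulated libraries were the highest for *Ulk2*, and its log2 fold change was -0.42 (SE 0.070, adjusted p = 3.12e-04) under LPS and -0.45 (SE 0.070, adjusted p = 4.18e-04) under IFN-β. *Ulk1*, the other kinase gene, was lower too, with -0.44 after LPS and -0.34 after IFN-β. The IFN-β call of *Ulk1* (adjusted p = 0.0377) was lost without unstimulated library A (adjusted p = 0.137), IFN-β library B (0.0667) or IFN-β library C (0.133). *Atg101*, which stabilises ATG13, stood at 11.5, 11.3 and 9.95 CPM in unstimulated DCs, 12.1, 13.3 and 10.6 CPM in LPS-activated DCs and 9.72, 9.43 and 9.11 CPM in IFN-β-treated DCs. LPS and unstimulated libraries overlapped and IFN-β libraries lay below both. Against unstimulated DCs, *Atg101* had 0.14 (SE 0.10, adjusted p = 0.220) under LPS and -0.21 (SE 0.10, adjusted p = 0.109) under IFN-β, and the IFN-β value passed the threshold in the blocked model (adjusted p = 0.0449), with upper-quartile factors (0.0295) and with scaling by library size only (0.00133). *Rb1cc1*, the scaffold FIP200, had values of 0.16 and 0.10, neither past the threshold.

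Among the class III PI3 kinase genes, *Becn1* was higher under both stimuli, *Uvrag* under IFN-β, and *Atg14* was lower under LPS. *Becn1*, the Beclin 1 subunit, was at 69.2 to 72.7 CPM without stimulation, 96.9 to 102 CPM after LPS and 85.1 to 87.6 CPM after IFN-β. Its log2 fold changes were 0.49 (SE 0.054, adjusted p = 1.30e-05) under LPS and 0.28 (SE 0.054, adjusted p = 0.00181) under IFN-β, and with scaling by library size only they became -0.089 and -0.027. *Uvrag*, whose product takes the place of ATG14 in a second form of the complex, had 73.9, 74.7 and 76.7 CPM in unstimulated DCs, 68.4, 67.6 and 77.8 CPM in LPS-activated DCs and 106, 95.7 and 108 CPM in IFN-β-treated DCs. IFN-β libraries of *Uvrag* lay above the other 6, with a log2 fold change of 0.46 (SE 0.073, adjusted p = 4.96e-04), or 0.15 (adjusted p = 0.132) with scaling by library size only, while LPS and unstimulated libraries overlapped and differed by -0.075 (SE 0.073, adjusted p = 0.379). *Atg14*, which directs the kinase to sites of autophagosome formation, had values of -0.34 (SE 0.095, adjusted p = 0.00780) under LPS and -0.048 (SE 0.093, adjusted p = 0.7003) under IFN-β. *Pik3c3*, the catalytic subunit, had 0.055 and 0.051, not past the threshold.

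Of the genes for membrane supply and PI3P binding, *Atg2b* had the largest fall under IFN-β of all 39 genes, and *Atg9a* moved up with LPS and down with IFN-β. *Atg9a* (chr1:75180860-75192196, minus strand) encodes the membrane-spanning lipid scramblase of the vesicles that seed autophagosomes. It stood at 28.4, 26.0 and 27.7 CPM in unstimulated DCs, 35.9, 35.6 and 31.6 CPM in LPS-activated DCs and 22.6, 22.0 and 22.3 CPM in IFN-β-treated DCs. The 3 groups did not overlap: LPS libraries were highest, unstimulated libraries between and IFN-β libraries lowest. The log2 fold change was 0.33 (SE 0.070, adjusted p = 0.00165) under LPS, or -0.25 with scaling by library size only, and -0.29 (SE 0.071, adjusted p = 0.00596) under IFN-β. *Atg2b* (chr12:105616136-105685211, minus strand), a lipid transfer protein gene, had 66.9, 63.6 and 63.1 CPM in unstimulated DCs, 23.4, 27.6 and 23.2 CPM in LPS-activated DCs and 36.3, 38.2 and 33.4 CPM in IFN-β-treated DCs. All 6 stimulated libraries of *Atg2b* lay below the unstimulated ones, with LPS lower than IFN-β and a log2 fold change of -1.38 (SE 0.083, adjusted p = 1.27e-07) under LPS and -0.84 (SE 0.081, adjusted p = 1.90e-05) under IFN-β. *Atg2a*, its paralogue, had -0.44 (SE 0.091, adjusted p = 0.00127) under LPS and -0.19 (SE 0.090, adjusted p = 0.113) under IFN-β, and the latter passed the threshold in the blocked model (adjusted p = 0.0220). *Wipi1*, a reader of PI3P, was at 18.0, 13.7 and 13.1 CPM in unstimulated DCs, 13.3, 12.8 and 13.4 CPM in LPS-activated DCs and 12.2, 10.4 and 10.5 CPM in IFN-β-treated DCs. Unstimulated library A was the highest for *Wipi1*, and the log2 fold changes were -0.18 (SE 0.12, adjusted p = 0.210) under LPS and -0.44 (SE 0.12, adjusted p = 0.0131) under IFN-β, a call lost without IFN-β library B (adjusted p = 0.0514). *Wipi2*, which recruits ATG16L1, had -0.13 and -0.18, and the IFN-β value passed the threshold in the blocked model (-0.19, adjusted p = 0.0215).

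Of 7 conjugation genes, 5 changed under LPS (2 higher, 3 lower) and 5 under IFN-β (3 higher, 2 lower), and *Atg7* had the largest fall under LPS in this step. *Atg7* (chr6:114643097-114860614, plus strand), the E1-like enzyme that activates both ubiquitin-like systems, was at 92.8, 89.5 and 84.9 CPM in unstimulated DCs, 34.7, 38.1 and 36.6 CPM in LPS-activated DCs and 66.4, 74.9 and 66.2 CPM in IFN-β-treated DCs. The groups were separate, LPS lowest and unstimulated highest, with a log2 fold change of -1.29 (SE 0.072, adjusted p = 7.66e-08) under LPS and -0.37 (SE 0.070, adjusted p = 0.00160) under IFN-β. *Atg16l2*, a paralogue of the ATG16L1 scaffold gene and the lowest of the 39 genes per length, had 5.98, 5.64 and 6.25 CPM in unstimulated DCs, 2.65, 3.23 and 3.26 CPM in LPS-activated DCs and 3.42, 4.70 and 4.25 CPM in IFN-β-treated DCs. Its stimulated libraries were all below the unstimulated ones, with a log2 fold change of -0.96 (SE 0.14, adjusted p = 1.40e-04) under LPS and -0.53 (SE 0.14, adjusted p = 0.00967) under IFN-β. *Atg16l1*, which places the conjugate on membranes, had log2 fold changes of 0.28 under LPS (-0.31 with scaling by library size only) and 0.32 under IFN-β (0.0075 with that scaling, no call). *Atg12*, the ubiquitin-like modifier, had 0.34 under LPS (-0.24 with that scaling) and 0.36 under IFN-β (0.055, no call). Both *Atg12* calls were lost without unstimulated library C (adjusted p = 0.0561 and 0.0592), the LPS call without LPS library A (0.0518) and the IFN-β call without IFN-β library A (0.0694). *Atg5*, the acceptor of ATG12, had -0.51 (SE 0.070, adjusted p = 6.26e-05) under LPS and -0.16 (SE 0.069, adjusted p = 0.0880) under IFN-β, the latter past the threshold in the blocked model (adjusted p = 0.0264). *Atg3*, the E2-like enzyme for LC3, had 0.095 (SE 0.065, adjusted p = 0.214) under LPS and 0.36 (SE 0.065, adjusted p = 0.00111) under IFN-β. With scaling by library size only the IFN-β value of *Atg3* was 0.052 (adjusted p = 0.525). *Atg10*, the E2-like enzyme for ATG12, passed the threshold for IFN-β in the blocked model (0.27, adjusted p = 0.0236) and not without the block (0.28 (SE 0.12, adjusted p = 0.0744)), and had 0.016 under LPS.

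The ATG4 proteases trim LC3 and GABARAP proteins before conjugation and release them afterwards. *Atg4d* had 17.0, 15.5 and 15.7 CPM in unstimulated DCs, 23.3, 28.4 and 24.0 CPM in LPS-activated DCs and 19.5, 21.5 and 18.9 CPM in IFN-β-treated DCs. LPS libraries were the highest, with a log2 fold change of 0.65 (SE 0.092, adjusted p = 8.74e-05) under LPS, or 0.072 (adjusted p = 0.550) with scaling by library size only. IFN-β gave 0.31 (SE 0.092, adjusted p = 0.0165), or 0.010 (adjusted p = 0.942) with that scaling. The IFN-β call of *Atg4d* was lost without unstimulated library B or C or IFN-β library B (adjusted p = 0.0648, 0.0535 and 0.0643). Exons of *Kri1*, on the opposite strand, cover 19.3% of the exon bases of *Atg4d*, and the counts of *Kri1* came to 152% of its own. The column of stranded counts that was deposited is not stated, so how this overlap affected the *Atg4d* counts is not known. *Atg4b*, the protease most active on LC3, had 0.30 (SE 0.069, adjusted p = 0.00248) under LPS, or -0.28 with scaling by library size only, and 0.089 (SE 0.069, adjusted p = 0.320) under IFN-β. *Atg4a* and *Atg4c* lay between -0.10 and 0.14 in both comparisons, with no call.

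The LC3 and GABARAP genes encode the ubiquitin-like proteins that are fixed to the autophagosome, and they did not move as one group: 2 of 5 were higher and 2 lower under LPS, and 1 higher and 1 lower under IFN-β. *Gabarap* had 300.2, 282 and 273 CPM in unstimulated DCs, 336, 323 and 320.5 CPM in LPS-activated DCs and 295, 302 and 318 CPM in IFN-β-treated DCs. Its LPS libraries were the highest, with a log2 fold change of 0.20 (SE 0.066, adjusted p = 0.0213), or -0.39 with scaling by library size only, and IFN-β gave 0.10 (SE 0.066, adjusted p = 0.255). The LPS call of *Gabarap* was lost without unstimulated library B or C or LPS library A (adjusted p = 0.0797, 0.0823 and 0.0627). *Gabarapl1* stood at 81.5, 78.3 and 75.6 CPM in unstimulated DCs, 65.5, 68.6 and 59.7 CPM in LPS-activated DCs and 58.4, 64.0 and 56.7 CPM in IFN-β-treated DCs. Unstimulated libraries were the highest for this gene, with a log2 fold change of -0.28 (SE 0.072, adjusted p = 0.00512) under LPS and -0.39 (SE 0.072, adjusted p = 0.00123) under IFN-β. *Gabarapl2* had 17.8, 17.3 and 17.3 CPM in unstimulated DCs, 27.2, 23.7 and 24.2 CPM in LPS-activated DCs and 21.8, 19.3 and 19.7 CPM in IFN-β-treated DCs. It was highest with LPS, at a log2 fold change of 0.52 (SE 0.079, adjusted p = 1.50e-04) (-0.067 with scaling by library size only). Under IFN-β the value for *Gabarapl2* was 0.21 (SE 0.078, adjusted p = 0.0453), or -0.094 with that scaling, a call lost with DESeq2 (adjusted p = 0.0523) and without any one library other than LPS A or IFN-β B (adjusted p from 0.0547 to 0.172). *Map1lc3b*, the LC3 gene most used as an autophagosome marker, was at 98.2, 88.1 and 82.6 CPM in unstimulated DCs, 62.0, 70.1 and 68.3 CPM in LPS-activated DCs and 87.9, 87.9 and 91.0 CPM in IFN-β-treated DCs. LPS libraries were below all others, at a log2 fold change of -0.42 (SE 0.076, adjusted p = 4.87e-04), while IFN-β and unstimulated libraries overlapped, with -0.011 (SE 0.075, adjusted p = 0.917). *Map1lc3a* was low, at 7.60, 5.97 and 5.69 CPM in unstimulated DCs, 6.33, 6.61 and 5.13 CPM in LPS-activated DCs and 5.74, 6.51 and 4.78 CPM in IFN-β-treated DCs. All 3 groups overlapped for *Map1lc3a*, with -0.090 (SE 0.16, adjusted p = 0.628) under LPS and -0.18 (SE 0.16, adjusted p = 0.387) under IFN-β.

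As a share of the 5 genes within a library, which needs no scaling between libraries, CPM per length of merged exons gave *Gabarap* 70.8% ± 0.116 (SD, n = 3) in unstimulated DCs, 75.7% ± 0.884 (SD, n = 3) in LPS-activated DCs and 75.0% ± 1.33 (SD, n = 3) in IFN-β-treated DCs. *Gabarapl1* took 17.9% ± 0.247, 13.7% ± 0.762 and 13.5% ± 0.931 in the same order. *Map1lc3b* took 5.45% ± 0.204, 3.81% ± 0.318 and 5.37% ± 0.0773, and *Gabarapl2* 3.44% ± 0.114, 4.60% ± 0.261 and 3.96% ± 0.354. *Map1lc3a* had the remaining 2.48% ± 0.271, 2.18% ± 0.244 and 2.18% ± 0.353. Shares of *Gabarap*, *Gabarapl1* and *Gabarapl2* did not overlap between unstimulated DCs and either stimulated group, and that of *Map1lc3b* did not overlap between LPS-activated DCs and the others (exact permutation test, two-sided, p = 0.1 in each case). With the median length of protein-coding transcripts in place of merged exons, *Gabarap* took 60.2%, 67.4% and 65.3%, *Gabarapl1* 24.2%, 19.4% and 18.7% and *Map1lc3b* 12.01%, 8.77% and 12.1%, so the level of a share depended on the length. Against unstimulated DCs, *Gabarap* stayed higher and *Gabarapl1* lower with both stimuli, and *Map1lc3b* lower with LPS, while the small difference of *Map1lc3b* with IFN-β changed sign.

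**Figure D2:**
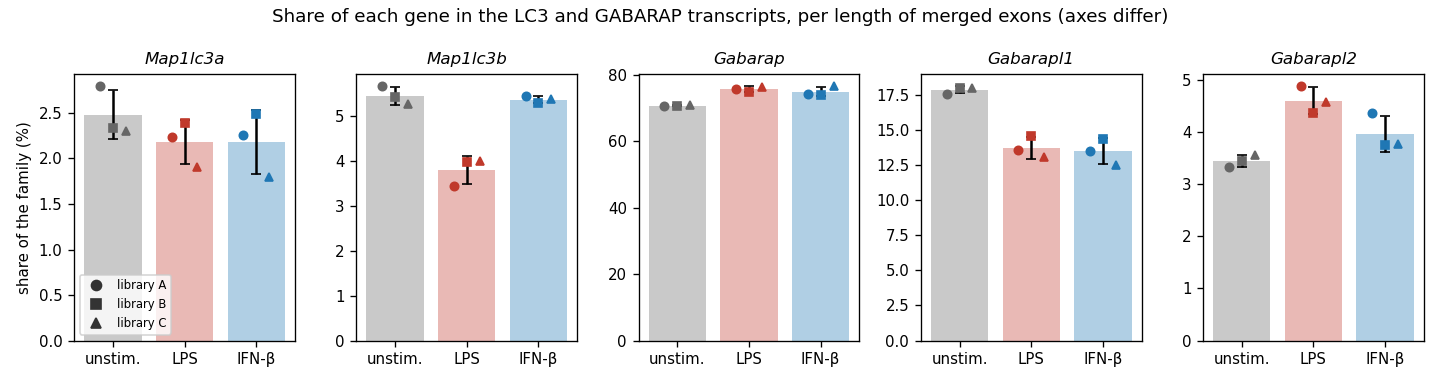
Percentage of the summed LC3 and GABARAP signal per length of merged exons (vertical axis, a separate scale for each gene) taken by each of 5 genes in unstimulated, LPS-activated and IFN-β-treated DCs. Bars are means with the SD of 3 libraries and symbols are single libraries: the share of *Gabarapl1* is lower under both stimuli and that of *Map1lc3b* is lower under LPS, at 3.81%.

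Cargo receptors held the largest rises of all 39 genes, with *Sqstm1*, *Optn* and *Tax1bp1* higher and *Calcoco1* lower under both stimuli. The median log2 fold change of the 5 receptors was 1.13 under LPS and 0.73 under IFN-β. *Sqstm1* (chr11:50199366-50210827, minus strand), which encodes p62, a receptor for ubiquitylated proteins that is itself degraded by autophagy, had 297, 281 and 268 CPM in unstimulated DCs, 642, 739 and 748 CPM in LPS-activated DCs and 459, 462 and 486 CPM in IFN-β-treated DCs. The groups were separate, LPS highest and unstimulated lowest, with a log2 fold change of 1.33 (SE 0.081, adjusted p = 1.45e-07) under LPS and 0.73 (SE 0.080, adjusted p = 4.59e-05) under IFN-β. *Optn* (chr2:5020642-5064051, minus strand), which encodes optineurin, a receptor for bacteria and damaged mitochondria, stood at 7.91, 7.79 and 7.15 CPM in unstimulated DCs, 21.9, 20.6 and 17.0 CPM in LPS-activated DCs and 22.1, 22.2 and 21.3 CPM in IFN-β-treated DCs. Stimulated libraries of *Optn* were all above 16 CPM and unstimulated ones all below 8 CPM, with a log2 fold change of 1.38 (SE 0.10, adjusted p = 4.95e-07) under LPS and 1.52 (SE 0.10, adjusted p = 1.95e-06) under IFN-β. *Tax1bp1* (chr6:52713729-52766780, plus strand), which binds ubiquitin and recruits FIP200, had 146, 138 and 135 CPM in unstimulated DCs, 326, 282 and 312 CPM in LPS-activated DCs and 291, 243 and 263 CPM in IFN-β-treated DCs. LPS and IFN-β libraries overlapped and lay above all unstimulated ones, at 1.13 (SE 0.084, adjusted p = 6.22e-07) under LPS and 0.93 (SE 0.084, adjusted p = 1.28e-05) under IFN-β. *Calcoco1*, a receptor for endoplasmic reticulum, had -0.46 (SE 0.091, adjusted p = 9.74e-04) under LPS and -0.32 (SE 0.090, adjusted p = 0.0132) under IFN-β, and the latter call was lost without unstimulated library A (adjusted p = 0.0518). *Nbr1*, a relative of p62, had -0.028 and -0.060, neither past the threshold.

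**Figure D3:**
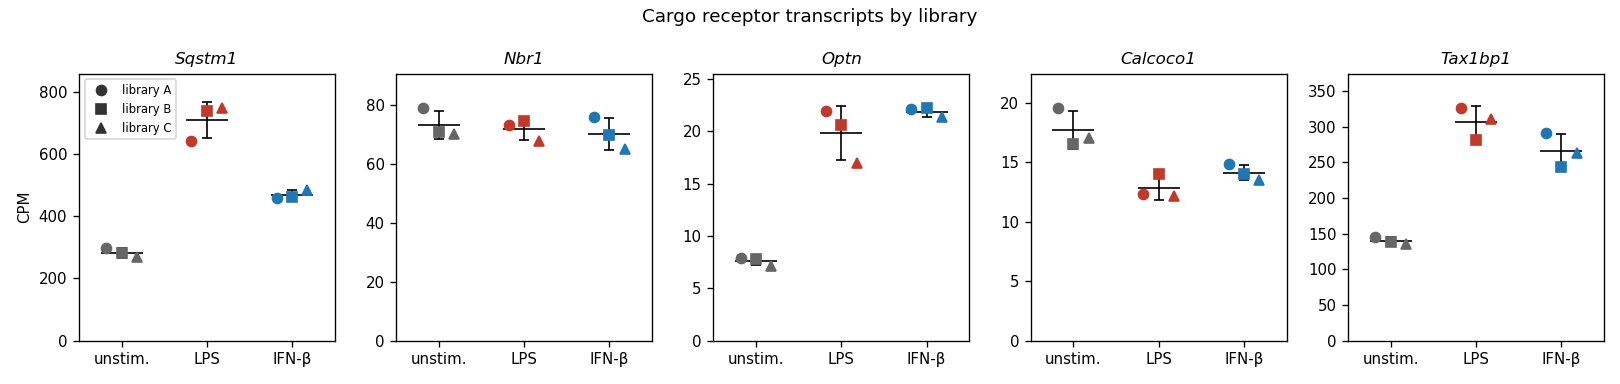
Level of 5 cargo receptor transcripts in CPM (vertical axes from 0, a separate scale for each gene) in unstimulated, LPS-activated and IFN-β-treated DCs, with 1 symbol per library and lines for the mean and SD of 3 libraries. *Sqstm1* separates the 3 groups, *Optn* and *Tax1bp1* are higher in all 6 stimulated libraries, and *Nbr1* overlaps between groups.

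*Tfeb* (chr17:47737030-47792419, plus strand) had the largest fall of the 39 genes under LPS. Its product is a transcription factor held in the cytoplasm by mTORC1 and known to drive lysosomal and autophagy genes. The gene stood at 43.0, 40.2 and 34.5 CPM in unstimulated DCs, 10.3, 15.0 and 11.6 CPM in LPS-activated DCs and 38.2, 40.7 and 35.7 CPM in IFN-β-treated DCs. LPS libraries were below 16 CPM and all others above 34 CPM, with a log2 fold change of -1.67 (SE 0.13, adjusted p = 1.08e-06) under LPS. IFN-β and unstimulated libraries overlapped, with -0.037 (SE 0.13, adjusted p = 0.836), and with scaling by library size only that IFN-β value was -0.34 (adjusted p = 0.0486), the shift of all genes included.

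The 3 mitophagy genes were lower under LPS, and with TMM factors, the filter and no block none passed the threshold under IFN-β. *Bnip3* (chr7:138890836-138909519, minus strand), which encodes a mitochondrial outer membrane receptor induced by hypoxia, had 38.9, 24.6 and 22.4 CPM in unstimulated DCs, 15.4, 11.1 and 9.49 CPM in LPS-activated DCs and 43.8, 25.1 and 28.4 CPM in IFN-β-treated DCs. Library A was the highest of its group in each condition, and LPS libraries lay below all others. The log2 fold change was -1.26 (SE 0.27, adjusted p = 0.00158) under LPS and 0.18 (SE 0.26, adjusted p = 0.593) under IFN-β, and within the letters A, B and C the log2 ratio of CPM plus 0.5 was -1.31, -1.11 and -1.20 for LPS and 0.17, 0.030 and 0.33 for IFN-β. *Bnip3l*, the related receptor NIX, was at 131, 104 and 95.7 CPM in unstimulated DCs, 78.3, 62.3 and 60.7 CPM in LPS-activated DCs and 135, 104 and 95.2 CPM in IFN-β-treated DCs. It too was highest in library A of each group and lowest with LPS, with -0.71 (SE 0.16, adjusted p = 0.00187) under LPS and 0.021 (SE 0.15, adjusted p = 0.925) under IFN-β. Within letters, the ratio for *Bnip3l* was -0.73, -0.74 and -0.65 for LPS and 0.052, 0.0051 and -0.0074 for IFN-β. *Pink1*, a kinase that accumulates on depolarised mitochondria, ranged from 14.8 to 21.2 CPM in unstimulated DCs, from 7.496 to 10.3 CPM with LPS and from 10.9 to 14.5 CPM with IFN-β. Its log2 fold change was -0.91 (SE 0.17, adjusted p = 6.75e-04) under LPS and -0.38 (SE 0.17, adjusted p = 0.0833) under IFN-β, and the IFN-β value passed the threshold in the blocked model (-0.38, adjusted p = 0.00386), with upper-quartile factors (0.0331), without the filter (0.0191) and with scaling by library size only (0.00323).

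**Figure D4:**
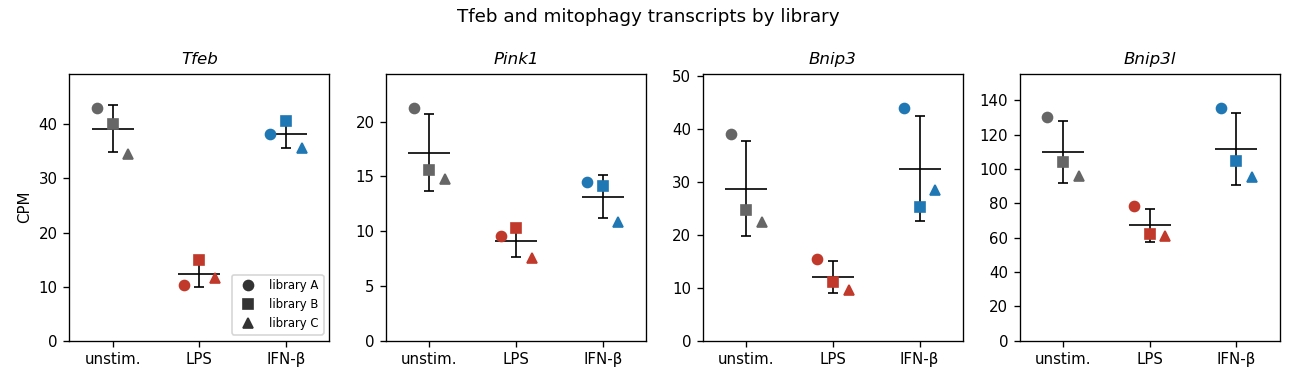
Level of *Tfeb*, *Pink1*, *Bnip3* and *Bnip3l* in CPM (vertical axes from 0, a separate scale for each gene) by condition, with a circle, square and triangle for libraries A, B and C and lines for the mean and SD of 3 libraries. For *Tfeb*, *Bnip3* and *Bnip3l* the 3 LPS libraries lie below the other 6, and the circle of library A is the highest of each group for *Bnip3* and *Bnip3l*.

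TFEB binds E-box sequences, and the promoter windows of the 39 genes were searched for CACGTG on both strands, in 300 bases from 250 before to 50 after the RefSeq start (GRCm38.p6). Windows were available for 32 of the 39 genes (38 windows). CACGTG was found in 5 windows, those of *Atg3*, *Atg5*, *Atg7*, *Atg14* and *Bnip3* (13.2% of 38 windows, against 7.15% of all 32851 windows). These are shown for 4 genes because they place the letters beside genes with unlike responses to LPS, 3 lower and *Atg3* not past the threshold; capitals mark CACGTG and each strand is that of the gene.
Atg7: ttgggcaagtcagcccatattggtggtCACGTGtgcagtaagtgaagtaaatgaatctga
Atg5: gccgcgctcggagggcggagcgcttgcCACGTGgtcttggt
Bnip3: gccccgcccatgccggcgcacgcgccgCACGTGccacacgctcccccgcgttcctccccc
Atg3: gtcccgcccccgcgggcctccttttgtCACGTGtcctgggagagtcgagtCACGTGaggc
The *Atg7* stretch (chr6:114670937-114670996, plus strand) lies in an intron of the longest annotated gene model, before the start of a shorter RefSeq transcript. Stretches of *Atg5* (chr10:44268298-44268338, plus strand), *Bnip3* (chr7:138909582-138909641, minus strand) and *Atg3* (chr16:45158708-45158767, plus strand) lie upstream of their genes, with the first base of the letters 14, 108 and, for its pair, 94 and 71 bases before the RefSeq start. *Atg14* held its copy in an annotated exon. Beside these letters, the log2 fold changes under LPS were -1.29 for *Atg7*, -0.51 for *Atg5*, -1.26 for *Bnip3*, -0.34 for *Atg14* and 0.095 for *Atg3*. *Atg2b* (-1.38) and *Atg16l2* (-0.96) were lower under LPS with no such letters in their windows, and a match in a window is not a site of binding. Whether TFEB acts on any of these genes was not tested.

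The same windows were searched for GAAANNGAA, the core of the interferon-stimulated response element, for TGACNNNGC, the core of the antioxidant response element, and for TGANTCA, the AP-1 site. GAAANNGAA was present in 3 windows (*Uvrag*, *Nbr1* and *Atg10*), 7.89% against 8.56% of all windows. Under IFN-β the log2 fold change was 0.46 for *Uvrag*, or 0.15 and no call with scaling by library size only. It was -0.060 for *Nbr1* and 0.28 for *Atg10*, neither past the threshold in the main model, and a link between letters and response was not tested. The *Uvrag* stretch (chr7:99141145-99141202, minus strand, upstream of the gene) is shown because the gene was higher under IFN-β, with the letters in capitals.
Uvrag: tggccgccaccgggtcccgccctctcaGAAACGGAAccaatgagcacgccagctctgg
TGACNNNGC was present in 4 windows (*Atg13*, *Ulk2*, *Map1lc3b* and *Tax1bp1*), 10.5% against 12.4%, and TGANTCA in 0 of 38 windows against 7.81%. The windows of *Sqstm1* and *Optn* held none of the 4 sets of letters.

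Between the IFN-β and LPS libraries, which is the difference of the 2 responses, 20 of 39 genes (51.3%) differed, 13 higher with IFN-β and 7 lower. Of all tested genes, 49.1% were called, 25.8% higher and 23.3% lower, so the share is again near that of the other genes. The split was 26 higher and 2 lower with scaling by library size only. The median absolute log2 difference was 0.25, against 0.38 over all tested genes. *Tfeb* differed most, by 1.64 (SE 0.13, adjusted p = 3.59e-06), followed by *Bnip3*, by 1.44 (SE 0.27, adjusted p = 0.00117), and *Atg7*, by 0.92 (SE 0.071, adjusted p = 2.39e-06). *Bnip3l* differed by 0.74 (SE 0.16, adjusted p = 0.00267) and *Atg2b* by 0.54 (SE 0.082, adjusted p = 3.20e-04). The 3 mitophagy genes and 4 of the 7 conjugation genes were called higher with IFN-β than with LPS, and no conjugation gene was called lower. *Pink1* differed by 0.53 (SE 0.17, adjusted p = 0.0253), a call lost without LPS library C, IFN-β library A or IFN-β library B (adjusted p = 0.10004, 0.0832 and 0.0790). *Uvrag* (0.53), *Map1lc3b* (0.41), *Atg5* (0.36) and *Atg3* (0.26) were also higher with IFN-β.

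Genes lower with IFN-β than with LPS were led by *Atg9a*, at -0.62 (SE 0.071, adjusted p = 3.88e-05), and *Sqstm1*, at -0.60 (SE 0.080, adjusted p = 1.27e-04). *Atg101* differed by -0.35 (SE 0.10, adjusted p = 0.0135), *Atg4d* by -0.34 (SE 0.091, adjusted p = 0.0109) and *Gabarapl2* by -0.30 (SE 0.078, adjusted p = 0.00823). With scaling by library size only these became -0.078, -0.061 and -0.027, none past the threshold. The *Atg101* call was lost without LPS library B (adjusted p = 0.0502). *Becn1* differed by -0.22 (SE 0.054, adjusted p = 0.00734), or 0.061 with scaling by library size only, and *Atg4b* by -0.21 (SE 0.069, adjusted p = 0.0248), which became 0.063. The *Atg4b* call was lost without LPS library A or B or IFN-β library A or C (adjusted p from 0.0594 to 0.0790). Calls of *Atg14* (0.29), *Atg2a* (0.25) and *Atg16l2* (0.43), all higher with IFN-β, were each lost without some libraries. For *Atg14* these were LPS A and C and IFN-β A and C (adjusted p up to 0.0993), for *Atg16l2* LPS A and B and IFN-β B and C (up to 0.125), and for *Atg2a* unstimulated B, LPS A and C and IFN-β A and B (up to 0.143). For *Atg2a* the IFN-β and LPS libraries overlapped (exact permutation test, two-sided, p = 0.2). *Optn* and *Tax1bp1* did not pass the threshold for a difference (0.14 (SE 0.10, adjusted p = 0.248) and -0.20 (SE 0.083, adjusted p = 0.0630)), and in the blocked model *Tax1bp1* did (adjusted p = 0.00878). The blocked model also called *Wipi1* (-0.27, adjusted p = 0.0245), *Atg10* (0.26, 0.0326) and *Atg4a* (0.25, 0.0337).

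**Figure D5:**
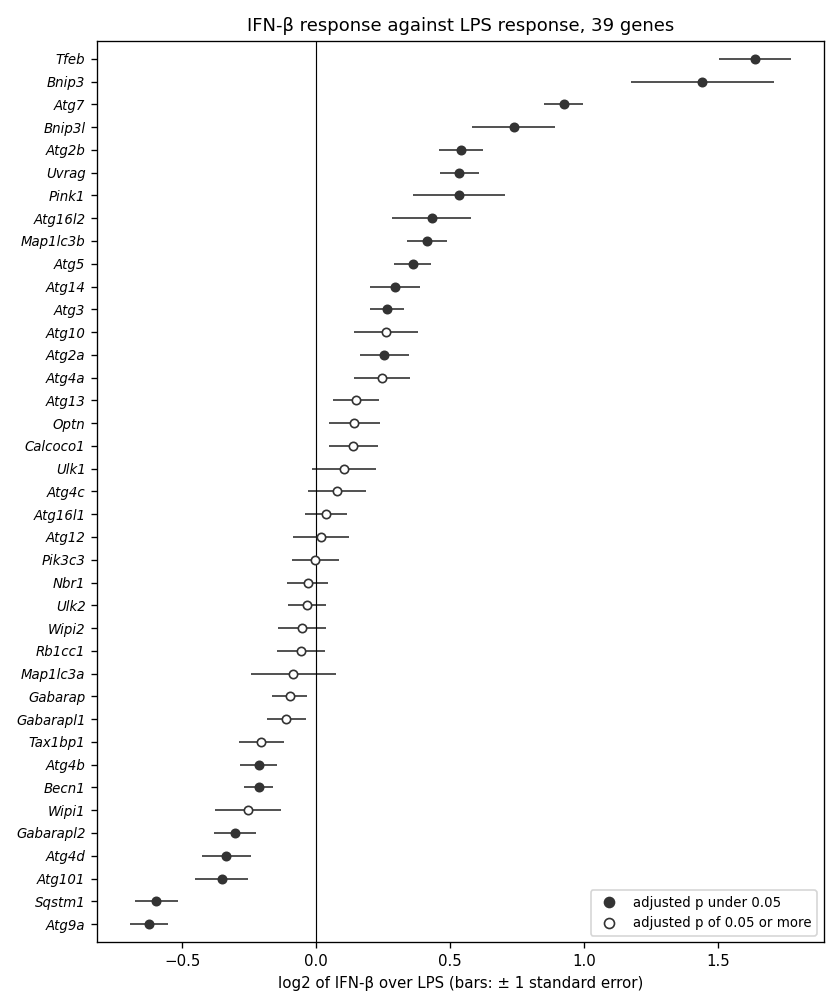
Log2 of the IFN-β level over the LPS level (horizontal axis) for the 39 genes, sorted by value, with bars of 1 standard error and filled points past the adjusted p-value threshold. *Tfeb* and *Bnip3* stand at the top, at 1.64 and 1.44, and *Sqstm1* and *Atg9a* at the bottom, at -0.60 and -0.62.

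Compared per length of merged exons, *Gabarap* and *Sqstm1* were the most abundant of the 39 transcripts, and their order turned with LPS. *Gabarap* had 155 CPM per kilobase ± 7.58 (SD, n = 3) and *Sqstm1* 84.0 ± 4.40 (SD, n = 3) in unstimulated DCs. With LPS the means were 177 and 211 CPM per kilobase, and with IFN-β 165 and 139.7 CPM per kilobase. *Gabarapl1* (38.996), *Bnip3l* (28.5) and *Atg3* (28.1) followed in unstimulated DCs, of which *Bnip3l* and *Atg3* differed by less than the SD of *Bnip3l*, 4.71. *Optn*, at 2.03 CPM per kilobase, was 38th of 39 in unstimulated DCs. *Atg16l2* was the lowest, at 0.703. This order, with its turn under LPS, was not computed with the median length of protein-coding transcripts. That length can be far from the merged exons, as for *Map1lc3b* with 1653.5 against 7517 bases.

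Among 62 other genes of the pathway, listed for their role, 60 were tested. Both directions together, 41 (68.3%) changed under LPS, 31 (51.7%) under IFN-β and 31 between the responses, near the shares of all genes. The splits were 14 higher and 27 lower under LPS, 16 and 15 under IFN-β, and 22 higher with IFN-β and 9 lower between the responses. Over all tested genes they were 32.8% and 35.4%, 23.6% and 23.3%, and 25.8% and 23.3%. The 60 genes were thus split less evenly than all genes under LPS and between the responses. With scaling by library size only the splits of the 60 genes were 3 and 47, 7 and 38, and 41 and 3. All 12 genes of mTORC1, the kinase complex that holds autophagy back, and of its regulators were called under LPS (4 higher, 8 lower) and 6 under IFN-β (1 higher, 5 lower). These counts and those for AMPK below stand beside 68.2% (LPS) and 46.9% (IFN-β) of all tested genes called. *Deptor*, an mTOR inhibitor, fell by 3.08 (log2) with LPS and by 1.96 with IFN-β, and the sestrin gene *Sesn1* fell by 1.45 and 0.80. *Ddit4*, another inhibitor, fell by 1.19 under LPS, and *Mlst8*, a subunit, by 0.40 under IFN-β. *Deptor*, *Sesn2* and *Sesn1* were higher with IFN-β than with LPS, by 1.12, 0.82 and 0.66. Of 6 genes for AMPK, the energy sensor that activates ULK1, 3 were lower under LPS and 3 lower and 1 higher under IFN-β. The γ subunit gene *Prkag2* fell by 2.87 and 1.58, *Prkag1* by 0.67 and 0.36 and *Prkab2* by 0.62 and 0.67. *Prkag2* and *Prkag1* were higher with IFN-β than with LPS, by 1.28 and 0.31, and the call of *Prkaa2*, near 1 CPM (-0.91), was lost without LPS library C or IFN-β library B or C (adjusted p from 0.0502 to 0.0919).

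Of 15 genes for fusion with the lysosome, 2 were higher and 7 lower under LPS, 7 higher and 2 lower under IFN-β, and 9 were called between the responses, all 9 higher with IFN-β. These are 60.0% in each comparison, against 68.2%, 46.9% and 49.1% of all tested genes. *Lamp2*, a lysosomal membrane protein gene, rose by 1.10 with LPS and by 1.35 with IFN-β. *Plekhm1* and *Tecpr1*, which encode tethering factors, fell by 1.02 and 0.86 under LPS and were 1.49 and 1.18 higher with IFN-β than with LPS. The SNARE genes *Vamp8* and *Snap29* rose by 0.62 and 0.49 under IFN-β, and *Snap29* was 0.77 higher with IFN-β than with LPS. Among 5 MiT and FOXO factor genes, *Mitf*, a relative of *Tfeb*, rose by 0.92 and 0.58 and was lower with IFN-β than with LPS (-0.35). With scaling by library size only this difference was -0.070, not past the threshold. *Foxo3* fell by 1.05 under LPS and was 1.09 higher with IFN-β. *Foxo1* was higher under LPS (0.41, or -0.18 with scaling by library size only) and lower with IFN-β than with LPS (-0.53), and *Tfe3* had 0.19 under IFN-β (-0.12 with that scaling), a call lost without any one of unstimulated B and C and IFN-β B (adjusted p up to 0.0705). Of 7 further mitophagy genes, 3 were lower under LPS (*Usp30*, a mitochondrial deubiquitylase gene, by 1.02, *Phb2* by 0.66 and *Bcl2l13* by 0.33). Under IFN-β, *Phb2* fell by 0.60 and *Bcl2l13* by 0.42. *Fundc1*, a hypoxia-linked receptor gene, rose by 0.51 under IFN-β, or 0.21 (adjusted p = 0.144) with scaling by library size only. *Usp30* and *Fundc1* were higher with IFN-β than with LPS, by 0.78 and 0.50.

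Of 8 genes related to the LC3 proteins and receptors, 6 were tested, of which 5 changed under LPS (3 higher, 2 lower) and 3 under IFN-β (2 higher, 1 lower). Counts of each list here stand beside 68.2% (LPS) and 46.9% (IFN-β) of all tested genes called. *Tbk1*, the kinase that phosphorylates optineurin and p62, rose by 1.47 with LPS and by 0.86 with IFN-β and was lower with IFN-β than with LPS (-0.61). *Ncoa4*, the ferritin receptor gene, had 0.57 under LPS (-0.012 with scaling by library size only) and 0.86 under IFN-β. The endoplasmic reticulum receptor gene *Tex264* fell by 0.45 under LPS, and *Retreg1* was 0.61 higher with IFN-β than with LPS. *Wdfy3*, an adaptor gene for protein aggregates, fell by 0.20 under IFN-β, a call lost without IFN-β library C (adjusted p = 0.0508), and was lower with IFN-β than with LPS (-0.42). Of 5 relatives of the membrane genes, 4 changed under LPS (1 higher, 3 lower) and 3 under IFN-β (1 higher, 2 lower). *Atg9b*, the paralogue of *Atg9a*, had 93, 88 and 117 counts in unstimulated DCs, 3, 3 and 5 with LPS and 14, 15 and 14 with IFN-β. LPS libraries of *Atg9b* were at or near 3 counts, the smallest that the depth was taken to show, and its log2 fold changes were -4.29 and -2.64, with a difference of 1.65. *Vmp1*, a scramblase gene, had 0.58 and 0.35, which became 0.00077 (adjusted p = 0.993) and 0.049 (0.581) with scaling by library size only. Its difference of -0.23 became 0.048 with that scaling. The call of this difference was also lost without any one of unstimulated B, LPS A, B and C and IFN-β B and C (adjusted p from 0.0567 to 0.151). *Wdr45* fell by 0.53 and 0.57, and *Tmem41b* was 0.25 higher with IFN-β than with LPS, a call lost with DESeq2 (adjusted p = 0.0829) and without any one of LPS A, B and C and IFN-β A (adjusted p up to 0.1397). Among 4 PI3 kinase partners, *Ambra1* rose by 0.72 and 0.33 and was lower with IFN-β than with LPS (-0.39). With scaling by library size only these values became 0.13, 0.021 and -0.11, none past the threshold. *Nrbf2* had 0.29 under LPS (-0.30 with that scaling).

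Several of the 39 genes share exon bases with a neighbour, which matters where the strand of the counts is not known. The share was 43.9% for *Becn1*, with *Cntd1* on the opposite strand, but *Cntd1* had at most 13 counts in any library. For *Atg9a* it was 31.8%, with *Gm29253* on the same strand at no more than 3 counts. *Gabarapl1* shared 28.3% with *1700101I11Rik* (10 to 20 counts) and *Sqstm1* 17.3% with *Mrnip* (6 to 53 counts). Counts of these 4 neighbours were less than 1% of those of the gene itself, unlike those of *Kri1* beside *Atg4d*. Counts of *Gskip* came to 53.7% of those of *Atg2b* and counts of *Fchsd2* to 730.0% of those of *Atg16l2*, with 2.85% and 0.295% of exon bases shared. Of pseudogenes named after the 39 genes, *Bnip3l-ps* had 8 to 24 counts and *Atg4a-ps* 0 to 10 counts per library.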

How the data were processed

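RNA was sequenced from 9 DC libraries (TRIzol extraction, ribosomal RNA removal, paired reads of 100 bases). Counts were deposited as raw, unnormalized whole numbers per gene; the authors trimmed reads with Trim Galore 0.6.0 and counted with STAR on mm10 with GENCODE genes. The submitters' processing notes name STAR 2.7.8a, and which strand was counted is not given in the sources used here. Levels between libraries therefore rest on the TMM factors computed here.

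The 39 genes and the other lists were chosen with earlier results of these data known. Values of every library are given for the 5 largest rises and 5 largest falls past the threshold in each comparison, for genes with opposed calls and for the LC3 and GABARAP genes, *Sqstm1* and *Tfeb*; from the other lists, the 3 largest changes past the threshold in each comparison are named. Counts of all 16260 genes passing filterByExpr were fitted in edgeR 4.0.16 (quasi-likelihood F-test, TMM, 1 term per group, 9 libraries), with Benjamini-Hochberg adjustment over all of them and a threshold of 0.05. SE is the absolute log2 fold change over the square root of F. IFN-β against LPS gives the difference of the responses. Exact permutation tests were two-sided. Scripts were tested on simulated data. Totals of 33425803 to 43735199 counts put the floor of 3 counts at 0.0674 to 0.106 CPM, for counting error only. Gene coordinates are GENCODE M21 on GRCm38.

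Libraries with the same letter deviated together from their group means (9 pairs, correlation from 0.134 to 0.546, mean 0.394; 18 pairs with unlike letters, -0.480 to 0.0622), so the letters were taken to pair the libraries, from the data and not from the labels. The main model and the permutation tests leave this pairing out, and only the model with the replicate block takes it in. Alternatives were DESeq2 1.42.0, other scalings and filters, 2 groups only, the replicate block, stricter thresholds and each library left out. The LC3 shares by transcript length and the alternatives for other pathway genes were chosen after seeing the data.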

Additional observations from a re-analysis of the deposited data

How the results depend on the processing

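Of the 117 fold changes of the 39 genes, 114 kept their side of the threshold with DESeq2, 117 with at least 10 counts required in every library, 112 without the filter, 113 with only the 2 groups compared in the fit, 107 with upper-quartile factors and 107 with the replicate block. In these settings, 1 to 6 values changed sign, none of them called. The letters as a block lost no call. Apart from the 10 values named beside their genes, it changed no call of the 39 genes. Under the block 27 genes changed with LPS, 26 with IFN-β (12 higher, 14 lower) and 24 between the responses, and upper-quartile factors also gave 14 lower with IFN-β. Leaving out 1 library gave 25 to 28 changed genes under LPS (10 to 13 higher, 15 lower in each case), 17 to 20 under IFN-β (8 to 11 higher, 7 to 9 lower) and 16 to 21 between the responses (10 to 13 higher, 6 to 8 lower). The cause of these changes was not tested.

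Scaling by library size only, which moved the median of all genes as given above, turned 36 of the 117 values, 25 of them with a call under one scaling or the other, and gave 3 higher and 33 lower genes under LPS, 4 and 23 under IFN-β and 26 and 2 between the responses. Values that turned with such a call were, under LPS, *Rb1cc1* -0.42, *Atg13* -0.21, *Atg101* -0.44, *Pik3c3* -0.53, *Becn1* -0.089, *Atg9a* -0.25, *Atg3* -0.49, *Atg10* -0.57, *Atg12* -0.24, *Atg16l1* -0.31, *Atg4b* -0.28, *Gabarap* -0.39, *Gabarapl2* -0.067, *Nrbf2* -0.30, *Ncoa4* -0.012 and *Foxo1* -0.18. Under IFN-β they were *Pik3c3* -0.25, *Becn1* -0.027, *Atg4b* -0.22, *Atg4c* -0.31, *Gabarap* -0.21, *Gabarapl2* -0.094 and *Tfe3* -0.12. Between the responses they were *Ulk2* 0.24, *Pik3c3* 0.27, *Becn1* 0.061, *Atg4b* 0.063, *Gabarap* 0.18, *Nbr1* 0.24 and *Vmp1* 0.048. The other 11, with no call under either scaling, were *Rb1cc1* -0.21, *Atg10* -0.034, *Atg4a* -0.16, *Bnip3* -0.12 and *Bnip3l* -0.28 under IFN-β, and *Rb1cc1* 0.22, *Wipi1* 0.018, *Wipi2* 0.22, *Map1lc3a* 0.19, *Gabarapl1* 0.16 and *Tax1bp1* 0.071 between the responses. Relative to the shift of all genes, each of the 36 values kept its sign, within 0.00605 of the value with TMM factors. This follows from the nearly constant offset between the 2 scalings and cannot show which is right. Scaling by library size only also took 9 calls below the threshold without turning them, among them those of *Uvrag* (0.15) and *Atg3* (0.052) under IFN-β.

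A minimum absolute log2 fold change of 1, which keeps fewer genes by construction, left 7 genes under LPS (3 higher, 4 lower), 1 under IFN-β (1 higher, 0 lower) and 2 between the responses (2 higher, 0 lower). An adjusted p of 0.01 left 13 between the responses, of which 4 were lower with IFN-β. Calls lost by other settings were those of *Gabarap* under LPS (without the filter, adjusted p = 0.116, and with upper-quartile factors, 0.159), *Atg16l1* under LPS (upper-quartile factors, 0.0667), *Gabarapl2* under IFN-β (without the filter, 0.121, upper-quartile factors, 0.152, and 2 groups only, 0.05004), *Atg4d* under IFN-β (upper-quartile factors, 0.0580) and *Ulk1* under IFN-β (2 groups only, 0.0547). Between the responses they were *Becn1* (without the filter, 0.0834), *Atg4b* (without the filter, 0.121, and 2 groups only, 0.0661), *Atg2a* (DESeq2, 0.0737) and *Atg16l2* (2 groups only, 0.0511). Upper-quartile factors also brought *Wipi2* under LPS (adjusted p = 0.0314) and *Atg101*, *Atg2a*, *Wipi2*, *Atg5* and *Pink1* under IFN-β (0.0115 to 0.0331) past the threshold, and DESeq2 the difference of *Tax1bp1* (0.0308). Among other pathway genes, calls were lost without the filter for *Wdfy3* (0.0893) and *Tfe3* (0.108) under IFN-β and for the difference of *Vmp1* (0.0835; 2 groups only, 0.0563), and with upper-quartile factors for *Tfe3* (0.127). With 3 libraries a group, a permutation test of a single gene cannot go below 0.1, so calls rest on the spread pooled across genes.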
